A study of Mus musculus with 14 samples.

Results

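Meiotic double-strand break hotspots that lay inside long protein-coding genes and had no partner in *Hells* cKO testes are described here. Their map came from DMC1 ChIP-SSDS, the sequencing of single-strand DNA bound by the recombinase DMC1. The hotspots were selected on measured values. A hotspot of the *Hells* CTRL list was taken when it was autosomal, had a strength of at most 338, had no *Hells* cKO peak center closer than 400 bp and no annotated transcript start within 1 kb, and had its center inside a protein-coding gene spanning over 200 kb in GENCODE M21 (GRCm38). This gave 1729 of the 11133 *Hells* CTRL hotspots, or 15.5% of the list and 9.07% of its summed strength. Strength is the score that the authors deposited for each peak, which counts the DMC1-bound fragments of a peak relative to the background around it.

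The line in which *Hells* was targeted has a C57BL/6N background and carries the *Prdm9* Dom2 allele. *Hells* CTRL mice carried 1 floxed and 1 deleted *Hells* allele (Hells fl/Δ) and were 5 weeks old, with 2 testes per replicate. *Hells* cKO mice carried the same alleles and the Stra8-iCre transgene, in which the *Stra8* promoter drives Cre in male germ cells that enter meiosis, and were 9 weeks old, with 3 testes per replicate. Both genotypes therefore share the deleted allele, and whole testis was used for both. Some spermatocytes of such conditional mice can keep the protein, because recombination of the floxed allele need not be complete. The 2 replicates of each genotype were merged by the authors into 1 peak list, so no value below has a spread between mice, no test between genotypes was possible, and genotype and age cannot be told apart. The other libraries of the series were not analysed here.

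In mouse spermatocytes, double-strand breaks are placed by PRDM9, a zinc finger protein that binds DNA motifs and methylates histone H3 at the flanking nucleosomes. HELLS is an SNF2-family chromatin remodeler that acts with PRDM9 and opens chromatin at its sites. Where PRDM9 activity is missing, breaks are formed at other accessible places, mainly promoters. Long genes consist mostly of intron, far from any promoter, and many of them encode neuronal adhesion molecules, receptors and ion channels.

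The sequence shared by these hotspots was searched with a matrix of 28 columns, learned from the 934 autosomal *Hells* CTRL hotspots of strength above 338, none of which belongs to the set described. Its most frequent bases, present in at least 50% of the aligned sites, read AGANGNTNCTNCCNNNT from column 10 on, where N is any base. Both strands were searched within 100 bp of each center, and a match had to reach a log2-odds score of 10.8, the level reached by 5% of windows 1 kb away from the strong hotspots. The 8 hotspots shown first are the strongest with a match apart from that in *Dym*, chosen because they let the shared bases be read directly in intronic sequence. Each is written 5′ to 3′ from the GRCm38 reference on the strand of the match, with the matched bases in capitals. *Baz2b*, the strongest hotspot of all, had no match and stands last in lower case.
Agbl4, chr4:111251101-111251201, plus strand: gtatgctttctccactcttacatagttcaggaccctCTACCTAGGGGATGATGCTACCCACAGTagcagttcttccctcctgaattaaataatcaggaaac
Wdpcp, chr11:21731676-21731776, minus strand: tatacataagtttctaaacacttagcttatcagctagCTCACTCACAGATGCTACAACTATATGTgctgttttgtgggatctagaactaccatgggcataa
Celf2, chr2:6860825-6860925, minus strand: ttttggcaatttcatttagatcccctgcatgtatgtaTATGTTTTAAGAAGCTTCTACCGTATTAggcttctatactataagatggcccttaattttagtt
Ctnnd2, chr15:30326101-30326201, plus strand: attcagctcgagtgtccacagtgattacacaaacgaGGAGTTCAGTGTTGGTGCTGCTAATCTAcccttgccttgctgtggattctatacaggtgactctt
Ttc7b, chr12:100499422-100499522, minus strand: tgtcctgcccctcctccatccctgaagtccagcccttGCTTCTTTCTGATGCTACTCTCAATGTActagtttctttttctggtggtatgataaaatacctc
Gm37240, chr3:84589146-84589246, plus strand: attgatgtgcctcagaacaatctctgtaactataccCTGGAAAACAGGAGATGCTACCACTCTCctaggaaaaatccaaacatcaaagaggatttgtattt
Ptprr, chr10:116129704-116129804, minus strand: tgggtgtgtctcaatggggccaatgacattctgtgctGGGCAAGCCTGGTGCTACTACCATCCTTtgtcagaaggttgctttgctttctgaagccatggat
Plxna4, chr6:32436329-32436429, plus strand: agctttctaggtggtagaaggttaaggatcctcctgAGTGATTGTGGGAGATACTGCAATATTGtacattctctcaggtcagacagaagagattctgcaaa
Baz2b, chr2:60016113-60016213, plus strand: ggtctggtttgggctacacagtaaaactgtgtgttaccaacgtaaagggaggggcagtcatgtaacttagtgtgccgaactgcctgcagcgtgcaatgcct

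The 8 hotspots were chosen for a match and the capitals mark it, so a shared core in the capitals follows from the choice. The *Celf2* match carried 10 of the 10 fixed letters of the consensus, the *Agbl4*, *Wdpcp* and *Gm37240* matches 8, the *Ttc7b*, *Ptprr* and *Plxna4* matches 7 and the *Ctnnd2* match 6. The highest of these 8 scores was that of *Ptprr*, at 19.6, and the lowest that of *Ctnnd2*, at 11.3. Over all 941 matches in the set, 368 carried 8 of the fixed letters, 260 carried 7, 179 carried 9 and 29 carried all 10. A complete consensus was thus rare.

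A match was present within 100 bp of 54.4% of the hotspot centers (941 of 1729; 95% Clopper-Pearson interval, 52.0% to 56.8%). In windows of the same size 1 kb to the left and to the right, the share with a match was 5.73% and 5.61%. In windows placed every 10 kb over the long genes themselves it was 5.29% (2075 of 39190). The share at the centers was thus far above that of the introns around them. Control-only hotspots inside shorter genes had 54.0% (52.0% to 55.9%) and those outside protein-coding genes 51.5% (49.96% to 53.0%), so the intervals overlapped with that of the long genes. The strong hotspots from which the matrix was learned had 61.9%, a value that is not independent of the matrix.

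The search for matches reached only 100 bp from the center, which by itself keeps them close to it. Their median distance was 37 bp, and 65.1% lay within 50 bp. These values are bounded by the window and do not measure closeness. The wider search plotted below does show it. There, 14.1% of the hotspots had their best match in the bin at 20 bp and 0.52% in the bin at 460 bp. The matches within 100 bp showed no preference for either strand of the host gene. Of these, 488 of 941 lay on the coding strand, or 51.9%. The interval of 48.6% to 55.1% includes an even split.

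**Figure D1:**
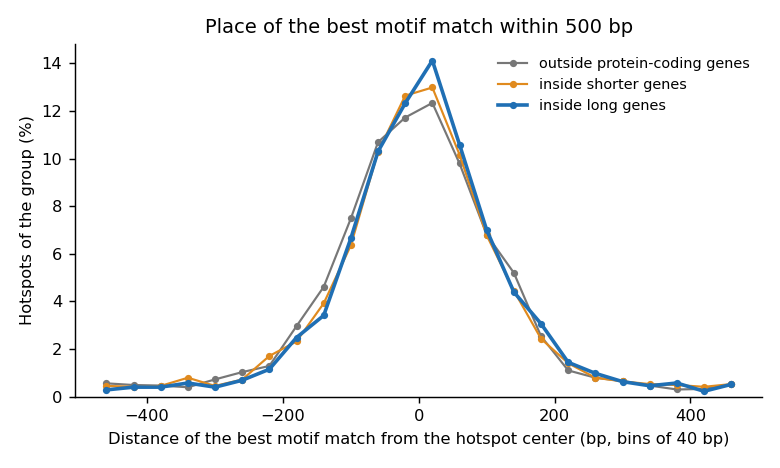
The share of hotspots (y axis, %) whose best match within 500 bp passes the score limit is plotted in bins of 40 bp by distance of that match from the hotspot center (x axis, bp), for control-only hotspots inside long genes, inside shorter genes and outside protein-coding genes. All 3 curves peak at the center, where the long genes reach 14.1% in the bin at 20 bp, and fall to under 1% beyond 300 bp.

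Of the 10397 autosomal *Hells* CTRL hotspots, 2018 lay inside a long gene. Of these, 1830 had a strength of at most 338, and 1784 of the 1830 had no *Hells* cKO center closer than 400 bp. Over all autosomal hotspots under that strength, 97.2% had no such partner (9198 of 9463), so lacking a partner was the rule in this strength range. Away from transcript starts, the control-only share was 97.6% inside long genes (1729 of 1772), 97.9% inside shorter genes and 98.0% outside protein-coding genes. Within 1 kb of a start it was 88.2% (593 of 672). These shares used the same values as the selection and are given as descriptions. The 188 hotspots of strength above 338 in long genes had a *Hells* cKO center closer than 400 bp in 128 cases. Over all 934 autosomal hotspots of that strength, the median distance to a *Hells* cKO center was 0.14 kb. A partner was thus common at that strength across the autosomes, and the count is not read as particular to long genes.

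The members just inside and just outside each limit were as follows. The strongest taken were *Baz2b* at 332 and *Dym* at 326, and the first left out for strength lay in *Gm45062*, directly above the limit, and in *Adam12* at 341. The closest *Hells* cKO centers kept were 408 bp away in *Dlgap1* and 413 bp away in *Ttc7b*, and a center just too close was 389 bp away in *Spag17*. For transcript starts, *Fryl* at 1044 bp and *Pard3* at 1046 bp were taken, while *Apbb2* at 995 bp and *Sorbs2* at 959 bp were not. The shortest host gene was *Pcbp3* at 200.03 kb, with hotspots of strength 120 and 92, and *Atp9b* at 199.9 kb, with hotspots of strength 79 and 44, fell short of the limit.

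Most of the selected hotspots were weak. Strength ran from 12 to 332, with a median of 56 and quartiles of 30 and 115, and the median corresponds to percentile 45.7 of the whole *Hells* CTRL list. The authors state that DMC1 signal reflects break formation and is also affected by break repair. With a lower strength, fewer cells with a break at the site therefore cannot be told apart from a difference in repair. The median was 55 inside shorter genes (quartiles 32 and 119, n = 2627) and 53 outside protein-coding genes (quartiles 30 and 108, n = 4249). All 3 groups were capped at the same strength by the selection, and their distributions largely overlapped. The signal was spread over many sites: the strongest 173 hotspots, those of strength 196 and above, held 29.97% of the summed strength of the set. Peaks were 1010 to 3308 bp wide, with a median of 1656 bp, and width and strength were correlated (Spearman rho = 0.42 across hotspots of 1 list).

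**Figure D2:**
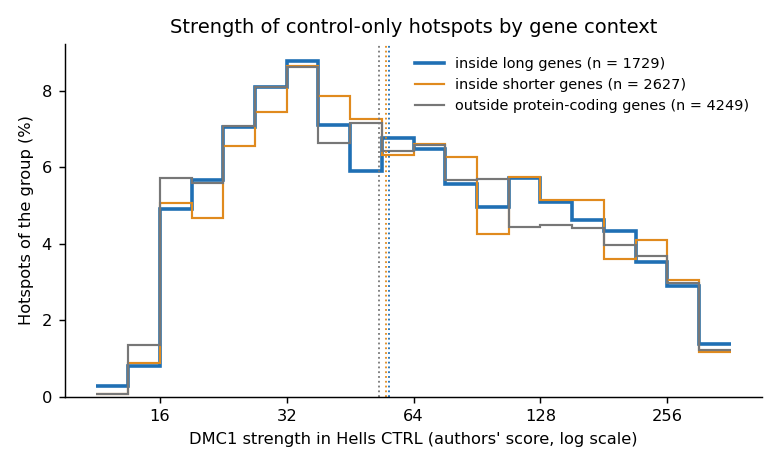
The share of hotspots in each group (y axis, %) is plotted against DMC1 strength in *Hells* CTRL (x axis, the authors' score on a log scale) for control-only hotspots inside long genes, inside shorter genes and outside protein-coding genes. Dotted lines mark the medians of 56, 55 and 53, and the 3 distributions lie on top of each other.

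The 10 strongest hotspots were all intronic. *Baz2b*, which encodes a bromodomain protein, held the hotspot of 332 at 194 kb from its 5′ end, with 10 CpG in the 250 bp to either side of the center. *Dym*, required for Golgi organization, and *Agbl4*, a carboxypeptidase that trims glutamates from tubulin, both reached 326. The hotspot in *Agbl4* stood in intron 5, 853 kb from the 5′ end and 164 kb from the nearest *Hells* cKO center. *Wdpcp*, which acts in planar polarity and cilia, followed at 322. *Celf2*, an RNA-binding splicing regulator, and *Sox6*, a transcription factor, both stood at 321. *Ctnnd2*, encoding a catenin of neurons, and *Cdk14*, a cyclin-dependent kinase, were at 320. *Ttc7b* and the transcription factor gene *Foxp1* both stood at 319. Of these 10, *Ttc7b* is the exception in its surroundings: its hotspot had a *Hells* cKO center of strength 23 only 413 bp away. That center lay inside the deposited *Ttc7b* interval of 1886 bp, so the lack of a partner rests on the limit of 400 bp. The other 9 had the nearest center between 9.56 kb (*Cdk14*) and 398 kb (*Sox6*). A motif match was present at 6 of the 10 and absent in *Baz2b*, *Sox6*, *Cdk14* and *Foxp1*. At the other end of the range, *Itpr1* and *Nell1* at 13 and *Dock1* at 12 were the weakest. Low strength did not exclude a match: the *Dock1* hotspot had one with a score of 18.9.

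Within the set, the share with a motif match was higher among stronger hotspots. In 5 groups of 345 or 346 hotspots ordered by strength, it was 46.2% (12 to 27), 50.6% (27 to 43), 54.8% (43 to 72), 56.9% (72 to 136) and 63.6% (136 to 332). The interval of the weakest group (40.9% to 51.7%) and that of the strongest (58.3% to 68.7%) did not overlap. Hotspots with a match had a median strength of 62 (quartiles 33 and 129), those without one 48 (quartiles 28 and 99.3). Score and strength were only weakly related (Spearman rho = 0.12 across hotspots, which share the same 2 merged libraries). Width rose over the same groups, from a median of 1528 bp to 1781 bp, and its part in the result was not tested. The matrix was learned from the strongest hotspots of the same list, and the part of this choice was not tested either. Mean GC content stayed between 42.3% and 42.9%.

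Per base, the hotspots were less dense in long genes than in shorter ones and denser than outside genes. The territory of long genes over 1 kb from any start came to 391.9 Mb and held 4.41 control-only hotspots per Mb (95% Poisson interval for counting error, 4.21 to 4.62). Shorter genes held 5.21 per Mb (5.01 to 5.41) and the territory outside protein-coding genes 3.15 per Mb (3.06 to 3.25). The 3 intervals do not overlap, but they cover counting error only and no replicate list was used. Only uniquely mapped reads entered the lists, and repeat content moved with part of this order. Repeat-masked sequence made up on average 27.6% of windows in long genes, 27.8% in shorter genes and 38.6% outside, and GC content was 41.3%, 43.7% and 40.9%. Their part in the densities was not tested.

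Density also fell with the span of the gene. It was 4.82 per Mb of summed span in the 412 genes of 200 to 300 kb, 4.29 in the 323 genes up to 500 kb, 3.96 in the 163 genes up to 1000 kb and 3.58 (3.17 to 4.02) in the 55 genes beyond. The first class had an interval of 4.40 to 5.27, which does not overlap that of the last. Longer genes nevertheless more often held at least 1 hotspot: 67.7%, 79.6%, 92.0% and 98.2% of the genes in these classes did. Median strength was 58, 54, 57.5 and 52, with no steady order.

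Of the 953 long autosomal genes, 740 (77.6%) held at least 1 of the hotspots. A single hotspot was found in 269 genes, 2 or more in 471 and 5 or more in 65. Span and number of hotspots were correlated across the 953 genes (Spearman rho = 0.44). Neighbouring hotspots of 1 gene lay a median of 86.2 kb apart (quartiles 39.2 and 179 kb, 996 pairs), and 7 pairs were under 5 kb apart. A second annotated gene was also present at some sites: 42 hotspots lay inside a shorter protein-coding gene as well, 56 inside a long noncoding RNA gene and 14 inside more than 1 long gene. Every autosome contributed, from 45 hotspots on chromosome 19 to 131 on chromosome 2. Density per chromosome ran from 3.26 per Mb of long-gene territory on chromosome 4 (2.56 to 4.09) to 5.88 on chromosome 17 (4.67 to 7.32).

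**Figure D3:**
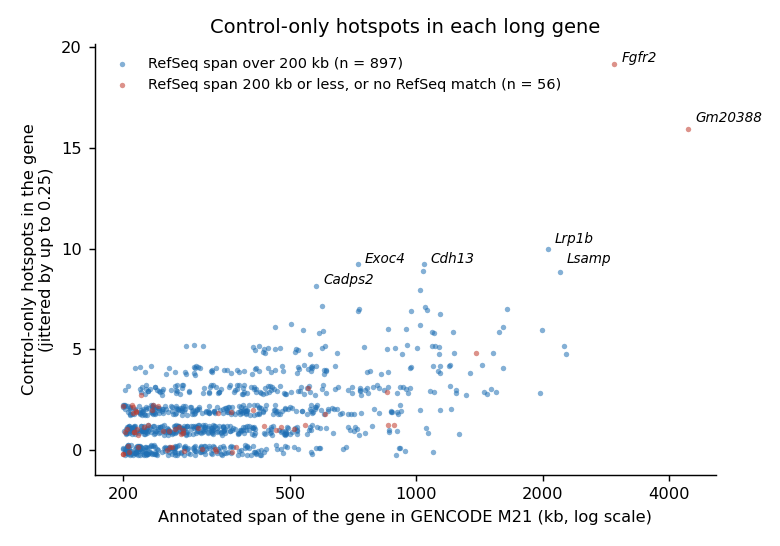
Each of the 953 long genes is plotted by its annotated span (x axis, kb, log scale) and its number of control-only hotspots (y axis, jittered vertically). Genes whose RefSeq span is 200 kb or less or that have no RefSeq match are in red, and the 2 genes with the highest counts, *Fgfr2* with 19 and *Gm20388* with 16, are among them.

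The 2 highest counts belonged to spans that rest on single transcript models. *Fgfr2*, a fibroblast growth factor receptor, had 19 hotspots in an annotated span of 2961 kb (chr7:130162451-133123350, minus strand). That span was set by 1 of its 27 transcripts: the next longest coding transcript covered 104 kb, as did the RefSeq gene, and none of the 19 hotspots lay in it. The span overlaps 31 protein-coding genes, *Fgfr2* counted. *Gm20388*, with 16 hotspots in 4435 kb, has a single transcript and no RefSeq match. For the set as a whole the effect of such models was small, since 1644 hotspots (95.1%) lay in a gene that spans over 200 kb in RefSeq too.

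The *Fgfr2* span is given in full for both lists. From the 5′ end of the long transcript, strengths in *Hells* CTRL were 22, 29, 48, 49, 41, 49, 59, 77 and 61 over the first 9 hotspots. Further on they were 19, 160, 45, 79, 123, 202, 25, 124, 186 and 62. Values above 77 were found only further on, among others of 19, 25, 45 and 62. The highest, 202, stood at 1698 kb from the 5′ end and 3.45 kb from a start of *Acadsb*. *Hells* cKO had 21 peaks in the same span, with strengths of 11 to 195 and a median of 51. Of these, 18 lay within 1 kb of a transcript start, among them those of *Ikzf5* (195), *Ate1* (172), *Oat* (113) and *Bub3* (51), and 1 lay at the start of *Fgfr2* itself, with a strength of 21. The *Hells* CTRL hotspots were selected away from starts and from *Hells* cKO centers and the *Hells* cKO peaks were not, so the places of both are not a comparison. The selection left out 1 *Hells* CTRL hotspot of the span, of strength 37 and 0.314 kb from a start of *Ctbp2*.

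Among genes that span over 200 kb in RefSeq too, *Lrp1b*, a giant member of the low-density lipoprotein receptor family, held the most hotspots, 10 in 2058 kb (chr2:40595246-42653624, minus strand). It was chosen for a closer description after its values were seen. From its 5′ end the strengths were 24, 38, 88 and 137 over the first 117 kb, then 30 at 546 kb, 271 at 1030 kb, 21 at 1196 kb, 17 at 1416 kb, 144 at 1835 kb and 60 at 1843 kb. High and low values were interspersed along the gene, with 3 hotspots above 130 and 3 at 24 or below. *Hells* cKO had 5 peaks in the gene, of strength 12 to 32, and the strongest of them was at the *Lrp1b* start. The nearest approach of the lists was 10.4 kb, between the first hotspot and the peak at the start. The matched sites in 6 of the 10 *Lrp1b* hotspots are given below in order from the 5′ end of the gene, with the consensus columns in capitals, to show how far sites in 1 gene differ.
Lrp1b hotspot of strength 137, chr2:42536786-42536813, plus strand: ggaaagccaAGAAGACACTACCACCTgt
Lrp1b hotspot of strength 30, chr2:42107783-42107810, minus strand: aacagccccAGCAGCTACTGTCAAGTgg
Lrp1b hotspot of strength 271, chr2:41623622-41623649, plus strand: taacgctctAGTTGATATTACCATCTtt
Lrp1b hotspot of strength 17, chr2:41237340-41237367, plus strand: catatacccAGAAGATGCTGCAACATgt
Lrp1b hotspot of strength 144, chr2:40818783-40818810, plus strand: gacaccaaaAGAAGTTACTACCAATCta
Lrp1b hotspot of strength 60, chr2:40810240-40810267, minus strand: tctgcccttAGCAGCTACTGTAAAATgg

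The 3 strongest of these, at 271, 144 and 137, had 8, 9 and 9 of the 10 fixed letters, and the site at 17 had 9 as well. The number of consensus letters thus did not order the strengths within this gene.

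**Figure D4:**
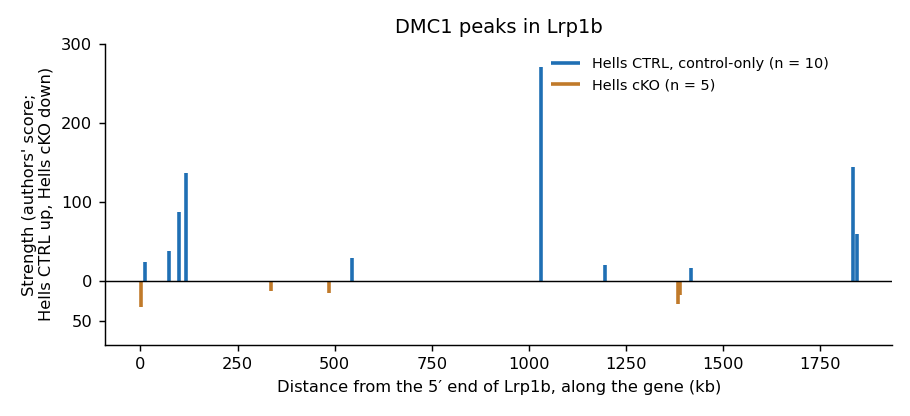
DMC1 peaks of *Lrp1b* are plotted by distance from the 5′ end of the gene (x axis, kb), with the strength of the 10 control-only *Hells* CTRL hotspots drawn upwards and that of the 5 *Hells* cKO peaks drawn downwards (y axis, the authors' score, not normalized between genotypes). The *Hells* CTRL hotspots reach 271 and are spread over the gene, and the *Hells* cKO peaks stay between 12 and 32.

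Other genes with many hotspots were unlike each other in strength. *Exoc4*, a subunit of the exocyst that tethers secretory vesicles, had 9 in 725 kb, or 12.4 per Mb, of strength 19 to 180. *Cadps2*, which acts in vesicle release, had 8 in 577 kb, or 13.9 per Mb, of strength 19 to 83. Each of these 2 genes also held 1 *Hells* CTRL hotspot above the strength limit of the selection, with a *Hells* cKO partner in *Exoc4* and none in *Cadps2*. *Cdh13*, a cadherin anchored by a lipid, and *Lrmda*, a gene of melanocyte differentiation, also had 9 each, with maxima of 80 and 54. *Zfhx3*, a homeobox transcription factor gene, had 8 (19 to 226). *Hs6st3*, a heparan sulfate sulfotransferase gene, *Ptprt*, *Gpc6*, *Csmd1* and *Kcnma1* had 7 each, with maxima between 174 and 238.

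*Epha6*, an ephrin receptor gene, was noticed after its values were seen. Its 5 hotspots were 296, 43, 306, 317 and 283 from the 5′ end. Only the weakest, 43, had a motif match, so 4 hotspots near the upper limit of the set lacked one.

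The hotspots were spread evenly along the genes. With each gene cut into 10 equal parts from 5′ to 3′, density was 4.70 per Mb in the first part and 4.22 in the last, and ranged from 3.87 to 4.81 over all 10, with overlapping intervals. Of the 1633 *Hells* cKO peaks in the same genes, 30.6% lay in the first part, but the selection left out *Hells* CTRL hotspots at starts, so this share cannot be set beside that of the hotspots. Over 1 kb from every start, the first part held 10.3% of the *Hells* cKO peaks (96 of 928) and 10.5% of the hotspots. The last part held 17.1% of these *Hells* cKO peaks (159 of 928) and 9.60% of the hotspots. Only the hotspots were also limited in strength and in distance to the other list. These shares are therefore descriptions and not a comparison. Peaks within 1 kb of a start made up 705 (43.2%) of the *Hells* cKO peaks in long genes. These had a median strength of 40, while the other 928 had 20. The starts counted here are those of any annotated transcript, also of other genes inside the span.

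**Figure D5:**
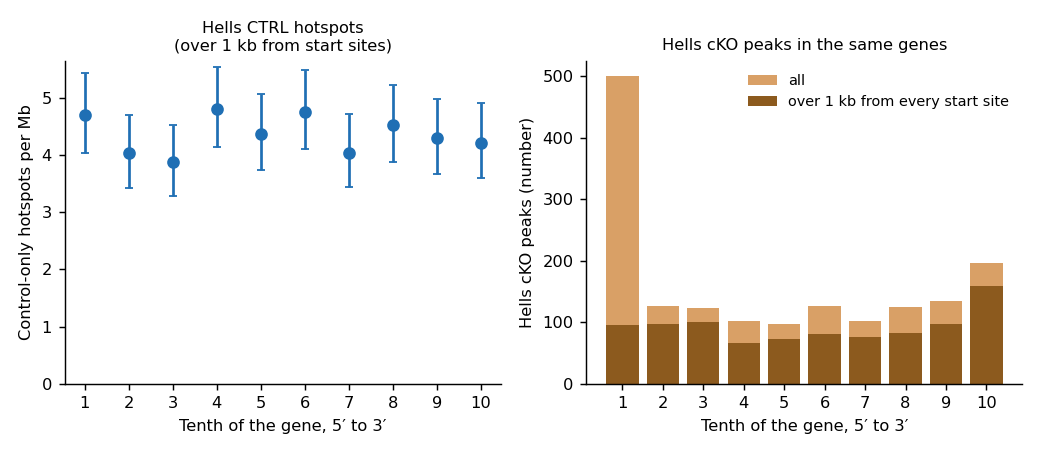
The left panel plots control-only hotspots per Mb of long-gene territory (y axis) in 10 equal parts of the gene from 5′ to 3′ (x axis), with 95% Poisson intervals for counting error, all between 3.29 and 5.53. The right panel plots the number of *Hells* cKO peaks in the same parts, with 500 in the first, of which 96 were over 1 kb from every start site.

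Nearly all hotspots lay in introns: 1677 of 1729, or 96.99% (96.1% to 97.7%). Another 19 centers fell in coding exons, 18 in untranslated regions and 15 in noncoding exons. Sequence outside exons made up 97.8% of the territory, a value just above the upper bound of that interval. The coding exon hotspots had a median strength of 119 against 55 for the intronic ones, but they were few. Of the 1648 hotspots in an intron of the longest coding transcript, 22.3% (20.3% to 24.4%) were in the first intron, which makes up 23.7% of intron bases in these genes, and 39.7% were in the longest intron, which makes up 40.1%. The intron around a hotspot had a median length of 87.1 kb.

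The sites were remote from promoters and from *Hells* cKO peaks, in part through the selection. The median distance to the nearest transcript start was 23.1 kb, and 187 hotspots were over 100 kb from every start. The most remote was a hotspot of strength 15 in *Ptprd*, a receptor phosphatase gene, 481 kb from a start. The nearest *Hells* cKO center was a median of 93.0 kb away, compared with 29.98 kb for control-only hotspots inside shorter genes and 70.6 kb outside protein-coding genes. Only 58 of the 1729 had one within 5 kb.

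CpG dinucleotides were somewhat more frequent at the centers than over the territory. The 250 bp to either side of a center held 4.36 on average (SD 2.98, n = 1729 hotspots), compared with 3.90 in windows placed every 10 kb over the same territory. Hotspots inside shorter genes had 5.14, against 4.94 over their territory. Those outside protein-coding genes had 3.88, against 3.58 over theirs. Centers thus held more CpG than the territory in each of these groups, and the groups differed along with their territories. The strong hotspots had 4.32. No CpG was present at 4.57% of the hotspots in long genes, 1 or 2 at 24.7%, 3 to 5 at 41.2% and 6 or more at 29.6%. CpG count and strength had a Spearman rho of 0.03 across hotspots. GC content was 42.6% on average at the hotspots and 41.3% over the territory, and repeat-masked bases made up 18.7% at the hotspots and 27.6% over the territory. Masked bases made up 20.98% at the hotspots inside shorter genes, against 27.8% over their territory. At those outside protein-coding genes they made up 23.9%, against 38.6% over theirs. Hotspots thus held fewer masked bases than windows over the territory in each group, so this is not particular to long genes. The part of unique mapping in this was not tested.

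The host genes were described by families. Over all 953 long genes, 77.6% held at least 1 of the hotspots, at 4.23 per Mb of summed span and with a median strength of 56. This share rose with span, so counts of hosts in a family of very long genes are read against the classes of span above. Genes of cell adhesion were the largest group. Of 48 long genes of synaptic and axonal adhesion and guidance, 43 held 129 hotspots at 3.59 per Mb (3.00 to 4.27). *Lsamp*, which encodes an adhesion protein of limbic neurons, had 9 (18 to 174), and *Chl1*, *Dcc*, *Epha5*, *Ncam2* and *Slit2* had none. Among 13 cadherin and protocadherin genes, 10 held 30 hotspots at 3.55 per Mb, 9 of them in *Cdh13*, and *Fat3*, *Pcdh7* and *Dchs2* held none. Receptor tyrosine phosphatase genes, 8 of 9 with 24 hotspots at 3.54 per Mb, were led by *Ptprt* with 7 of strength 19 to 219. Extracellular matrix genes, 14 of 15 with 25 hotspots at 4.62 per Mb, were led by *Lama2*, a laminin chain of muscle basement membrane, with 4 of strength up to 244.

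Receptors, channels and their scaffolds followed. Of 15 glutamate receptor genes, 13 (86.7%) held 27 hotspots at 3.18 per Mb (2.09 to 4.62), with a median strength of 63. Ion channel genes of the Kcn and Cacn families (21 of 26, 53 hotspots at 4.67 per Mb) were led by *Kcnma1*, the BK potassium channel gene, with 7 of strength 18 to 174. Membrane scaffold genes (12 of 12, 33 hotspots at 3.599 per Mb) were led by *Dlgap2*, of the postsynaptic density, with 5 of strength 20 to 280, and phosphodiesterase genes (7 of 9, 14 hotspots at 3.15 per Mb) by *Pde10a* with 6 of strength 15 to 171.

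Regulators of gene expression and fragile genes completed the groups. Of 23 genes of transcription factors and coregulators, 22 held 55 hotspots at 5.19 per Mb (3.91 to 6.76), with 5 in *Foxp1* (22 to 319). All 9 genes of RNA-binding and splicing factors held 19 hotspots at 3.42 per Mb, 5 of them in *Rbfox1* (77 to 284), and their median strength of 99 was the highest of the 11 groups. All 20 genes of large common fragile sites, regions prone to breakage under replication stress in dividing cells, held 89 hotspots at 3.18 per Mb (2.55 to 3.91), the most in *Lrp1b*. Of these 20 genes, 15 span over 1000 kb, a class in which 98.2% of all long genes were hosts. The groups overlap and differ in gene length, density fell with length, and no group was tested against the rest. Median strengths of the other 10 groups lay between 40 and 72.

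Promoters of host genes and of other long genes were compared last. A *Hells* cKO peak lay within 1 kb of an own start in 436 of 740 host genes, or 58.9% (55.3% to 62.5%), and in 121 of the 213 long genes with no such hotspot, or 56.8% (49.9% to 63.6%). The intervals overlap. Deeper in the gene, over 1 kb from every start, a *Hells* cKO peak was found in 51.9% of the hosts and 42.3% of the other long genes, but host genes were also longer, with a median of 353 kb against 266 kb. A strong *Hells* CTRL hotspot, of strength above 338, was found in 18.2% of the hosts (15.5% to 21.2%) and 13.6% of the other long genes (9.31% to 19.0%).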

How the data were processed

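Whole testis of both genotypes was analysed by the authors with DMC1 ChIP-SSDS. Reads were trimmed, mapped to GRCm38/mm10 and kept when unique and not duplicated. Peaks were called with MACS2 and the final list of each genotype was taken from the merged replicates by the Irreproducible Discovery Rate. The deposited strength is a score that the authors computed per peak. It is a whole number throughout, so the described library-size step may be absent or scaled, and strengths were not compared between genotypes. Read depth behind a peak is unknown, and intervals cover counting error only.

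Peak centers were computed as integer midpoints. Host genes, exons and starts came from GENCODE M21, sequences and repeat masking from the GRCm38.p6 RefSeq assembly. The script used Python 3.11.15, numpy 2.4.6, pandas 2.3.3 and scipy 1.17.1, and the motif search and the membership steps were tested on simulated data. Shares have exact Clopper-Pearson and densities exact Poisson 95% intervals. Members, gene lists and alternatives were chosen with earlier results of these data known. Named were the 10 strongest members, the 15 genes with the most members, all peaks of the first of these, members at the limits, and the leading gene of each list. Sequences are those of the 8 strongest members with a match that are not on chromosome 18, plus the strongest member with none. Some items that this rule names are not reported here. Further names were chosen after their values were seen, among them list genes with no hotspot, *Epha6*, *Nell1*, *Itpr1*, *Dock1* and *Ptprd*.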

Additional observations from a re-analysis of the deposited data

How the results depend on the processing

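The selection depends most on gene span and strength. Against 1729 hotspots, it gave 2728 with genes over 100 kb and 956 over 400 kb. At or above the median strength of the list it gave 784. Requiring that no deposited *Hells* cKO interval overlap that of the hotspot gave 1713, so some of the 1729 overlapped one. Over 400 kb, density was 4.11 per Mb, 98.2% were intronic and the mean CpG count was 4.15. At or above the median strength, the hotspots had a median of 124, a density of 2.00 per Mb and a motif match in 59.6%. As a percentile of the whole list, the median strength was 45.7. The share with a match was 32.7% within 50 bp, 59.5% within 250 bp and 32.7% with the score limit of 1% of flanking windows. The mean CpG count was 1.79 within 100 bp and 8.46 within 500 bp, as the window sets it. Counting coding transcripts only, 97.9% were intronic, and 54.2% of hosts had a *Hells* cKO peak within 500 bp of a start. RefSeq spans, added after single spans were seen, gave 1695 hotspots and a match in 54.3%, and matrices of 22 and 36 columns, also added later, gave 52.7% and 53.0%. No paired analysis was possible because the authors merged the replicates into 1 list per genotype, and leaving out a replicate was not possible for the same reason.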
